A study of Nothobranchius furzeri with 6 samples.

Results

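The genes described here are the immediate early genes JUN, ATF3, DUSP1, IER2, NR4A3 and FOSL2 in the retina of the African turquoise killifish (Nothobranchius furzeri), a short-lived teleost used to study ageing. Their entries were found by symbol, ignoring case and copy endings, which gave 8 of the 24989 entries in the gene table: JUN (XLOC_000409), JUN(2OF2) (XLOC_015540), ATF3 (XLOC_009826), DUSP1 (XLOC_004383), IER2(2OF2) (XLOC_007801), IER2 (1 OF 2) (XLOC_005742), NR4A3 (XLOC_011307) and FOSL2 (XLOC_024953). Both JUN entries carry the gene name jun in the annotation, and IER2(2OF2) matches ier2a, so reads could be split between the copies and the values of JUN, JUN(2OF2) and the IER2 entries are uncertain to that extent. The 6 names were chosen by their known role and with their measured levels and age differences in these same libraries in view, so the levels and age differences of the 8 entries are given as a description, without p-values.

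Neural retinas of untreated wildtype female fish of the inbred GRZ-AD strain were profiled by droplet 3' single-cell RNA-seq from fish aged 6, 12 or 18 weeks, and each age was represented by 2 libraries. A library pooled the retinas of 3 fish at 6 weeks and of 2 fish at 12 and 18 weeks, so a library is an average of fish and the spread between fish was not measured. The retinal pigment epithelium was rinsed off, and the tissue was digested with papain and triturated into a suspension before capture. The study also sequenced snap-frozen retinas in bulk at the same ages, but those data were not used. No undissociated retina was analysed here, so expression that the tissue had before collection and expression begun during dissociation cannot be told apart.

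Immediate early genes are transcribed within minutes of a stimulus such as a growth factor, neuronal activity, injury or mechanical stress, because their induction needs no new protein. JUN, ATF3 and FOSL2 encode leucine zipper proteins of the AP-1 family of transcription factors, in which JUN pairs with ATF3 and with FOS proteins such as FOSL2. NR4A3 encodes an orphan nuclear receptor, and IER2 encodes a nuclear protein of the early response. DUSP1 encodes a phosphatase that switches off MAP kinases and so ends the signal that induces these genes. In mammalian tissues the same genes are widely known to be switched on by enzymatic dissociation, and in fish and mammals JUN and ATF3 are also known from injured neurons and reactive Müller glia.

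The 6 libraries held 37243 cells (4804 to 7235 per library), 17393089 to 24317894 unique molecular identifiers (UMIs, counted transcripts) and a median of 2082 to 2574.5 UMIs per cell, and pairs of libraries shared 6 to 18 cell barcodes. The deposited cell type labels were used, and 16 types had at least 10 cells in every library. The marker genes used to check the labels peaked in the type they mark, apart from 2 entries that are not reported here. A level below is the CPM (counts of a gene scaled to a common total per library) of a gene in the summed cells of a library and type, given as mean ± SD over 6 libraries unless an age is named. In a 3' assay it is not divided by gene length, so levels are set side by side between types and not between genes.

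Orders of types here and below cover the 16 types with library values and leave out the smaller ones. Among them Müller glia, the radial glia of the retina, had the highest mean level of 5 of the 8 entries: JUN, JUN(2OF2), ATF3, NR4A3 and IER2 (1 OF 2). These glia were 8.37% of the cells and held 9352 of the 21458 UMIs of JUN (43.6%), 8593 of 15976 of ATF3 (53.8%) and 1736 of 4254 of NR4A3 (40.8%). The other entries peaked elsewhere, with IER2(2OF2) highest in horizontal cells, FOSL2 in GABAergic amacrine cells and DUSP1 in immune cells. The entries therefore did not share a leading cell type, though Müller glia ranked 2 for IER2(2OF2) and 3 for FOSL2 and DUSP1.

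**Figure D1:**
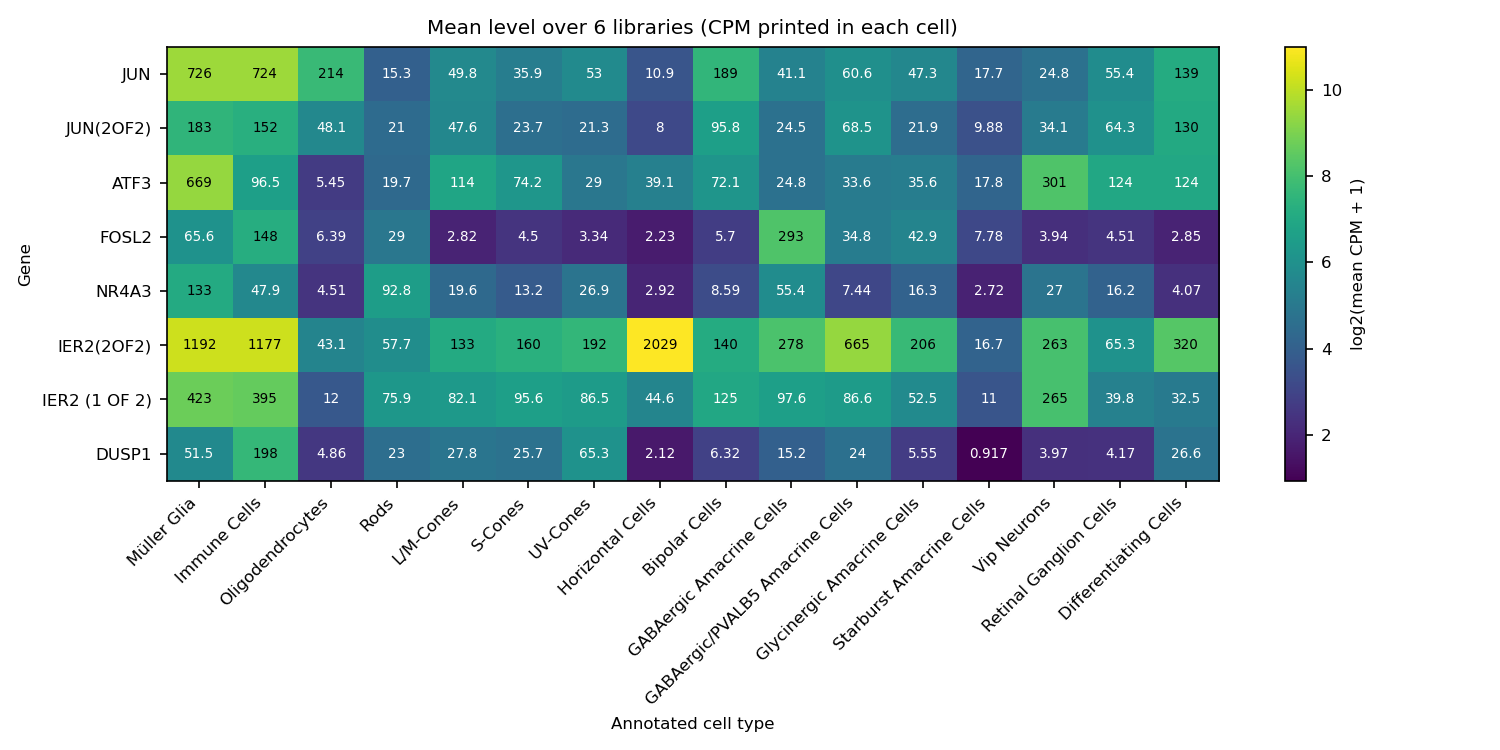
Mean level of the 8 immediate early gene entries (rows) in the 16 cell types (columns), as CPM averaged over 6 libraries. Müller glia lead 5 rows (JUN at 726, ATF3 at 669), horizontal cells lead IER2(2OF2) at 2029, GABAergic amacrine cells lead FOSL2 at 293 and immune cells lead DUSP1 at 198.

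Among the AP-1 genes, JUN was at 726 ± 76.8 CPM in Müller glia and at 724 ± 94.2 CPM in immune cells, and the libraries of the 2 types overlapped. Oligodendrocytes came next at 214 ± 63.8 CPM, with no library as high as any of Müller glia or immune cells, followed by bipolar cells (189 ± 40.6 CPM) and differentiating cells (139 CPM). JUN was lowest in rods (15.3 ± 4.3 CPM) and horizontal cells (10.9 ± 3.0 CPM), whose libraries overlapped. JUN(2OF2) had a flatter order, with 183 ± 25.3 CPM in Müller glia, 152 ± 19.8 CPM in immune cells, 130 CPM in differentiating cells and 95.8 ± 7.6 CPM in bipolar cells. The first 4 types of JUN(2OF2) overlapped each with its neighbour, and horizontal cells were again lowest at 8.0 CPM.

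ATF3, which pairs with JUN and is a widely used marker of injured neurons, was at 669 ± 96.9 CPM in Müller glia, and the lowest library there (577 CPM) lay above the highest of any other type. Vip neurons, named for a neuropeptide of some amacrine cells, came next at 301 ± 112 CPM. Retinal ganglion cells, whose axons are cut when the retina is removed, had 124 ± 94.7 CPM, with 240 and 105 CPM at 6 weeks, 31.0 and 237 CPM at 12 weeks and 100 and 29.3 CPM at 18 weeks. The libraries of an age thus differed several-fold in ganglion cells, and no age stood apart. Oligodendrocytes, which had the third highest JUN level, had the lowest ATF3 level at 5.5 CPM.

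FOSL2, a FOS-related partner of JUN, was at 293 ± 43.6 CPM in GABAergic amacrine cells, the inhibitory interneurons of the inner retina. These cells were 4.87% of all cells and held 2126 of the 4277 UMIs of the gene (49.7%). Immune cells came next at 148 ± 22.8 CPM and Müller glia at 65.6 CPM, and the 3 types did not overlap. The related PVALB5 amacrine class had 34.8 CPM and starburst amacrine cells had 7.8 CPM, so amacrine types differed among themselves.

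NR4A3 was at 133 ± 59.4 CPM in Müller glia and at 92.8 ± 41.7 CPM in rods, the dim-light photoreceptors, and these types overlapped. Rods were near the bottom of the order for JUN, ATF3 and IER2(2OF2). GABAergic amacrine cells (55.4 CPM) and immune cells (47.9 CPM) followed, and horizontal cells had 2.9 CPM.

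IER2(2OF2) was at 2029 ± 411 CPM in horizontal cells, the interneurons that receive from photoreceptors, with 1617 and 1616 CPM at 6 weeks, 2603 and 1848 CPM at 12 weeks and 2086 and 2403 CPM at 18 weeks. Each horizontal cell library lay above every library of the other 15 types, and horizontal cells, 7.3% of the cells, held 26198 of the 59289 UMIs of this entry (44.2%). Müller glia (1192 ± 126 CPM) and immune cells (1177 ± 171 CPM) overlapped below them. The other copy, IER2 (1 OF 2), had 423 ± 35.9 CPM in Müller glia, 395 ± 23.8 CPM in immune cells and 265 ± 59.2 CPM in Vip neurons, and only 44.6 CPM in horizontal cells. The copies thus had different orders of types, and starburst amacrine cells were lowest for both, at 16.7 and 11.01 CPM.

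DUSP1, the MAP kinase phosphatase, was at 198 ± 41.3 CPM in immune cells, which were 2.34% of the cells and held 552 of its 2587 UMIs (21.3%). UV-cones (65.3 CPM) and Müller glia (51.5 CPM) came next and lay wholly below immune cells. Starburst amacrine cells had 1 UMI over 6 libraries.

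Pooled counts were taken for the 2 types too small for library values, with exact Poisson intervals that cover counting error only. The 51 cells annotated as pigment epithelium, a tissue that had been rinsed off, had 114 UMIs of JUN (511 CPM, 95% interval 422 to 614) and 95 of ATF3 (426 CPM, 345 to 521). This label was not checked with markers. These cells had 317 UMIs of IER2(2OF2) (1422 CPM, 1269 to 1587) and 117 of IER2 (1 OF 2) (525 CPM, 434 to 629). They had 22 of FOSL2 (98.7 CPM, 61.8 to 149) and 27 of DUSP1 (121 CPM, 79.8 to 176). For these last 4 entries the pooled values lay above the Müller glia means. The 28 red blood cells had no UMI of JUN, NR4A3 or FOSL2 and 14 of IER2(2OF2) (99.6 CPM).

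Cells differed in depth, so shares of cells were counted after thinning every cell to 1000 UMIs. JUN was then found in 33.9% ± 2.2 of Müller glia (58.8% before thinning) and in 0.83% of horizontal cells (4.25% before). ATF3 was found in 26.5% ± 2.9 of Müller glia (46.4% before) and in 2.33% of rods. IER2(2OF2) was found in 75.5% ± 4.7 of horizontal cells (95% before), in 49.7% of Müller glia and in 4.85% of ganglion cells. FOSL2 was found in 16.9% ± 2.2 of GABAergic amacrine cells and in 0.254% of horizontal cells, and DUSP1 in 10.2% ± 2.5 of immune cells and in 0.272% of horizontal cells. In each of these pairs the last type named gives a share that includes any free RNA in the droplets, and the first type named lay far above it.

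Over all cells, 40.5% ± 1.80 of thinned cells held at least 1 of the 8 entries (60.1% before thinning) and 12.6% ± 1.09 held at least 2 (28.5% before). Müller glia stood at 70.6% with at least 1, 48.5% with at least 2 and 29.0% with at least 3. Immune cells stood at 57.6%, 31.8% and 17.9% for the same counts, and bipolar cells at 36.2%, 10.7% and 2.66%. Horizontal cells reached 76.7% with at least 1 but 8.13% with at least 2, so few thinned horizontal cells held an entry other than IER2(2OF2). Before thinning their median was 4596 UMIs, and they held 574 UMIs of IER2 (1 OF 2) and 506 of ATF3.

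Within Müller glia most entries were found more often in cells that held another entry than in cells that lacked it. ATF3 was found in 42.7% ± 4.79 of Müller glia with a JUN UMI and in 18.0% ± 2.62 of those without (mean ± SD of 6 libraries, thinned cells). IER2(2OF2) was found in 71.1% of Müller glia with JUN and in 38.6% of those without, and NR4A3 in 13.2% and 7.32%. The share was higher beside the other gene in all 6 libraries for 42 of 49 ordered pairs in Müller glia and 27 of 42 in bipolar cells. It was so for 15 of 21 in immune cells but only 1 of 7 in L/M-cones. In ganglion cells, where 3 libraries had enough cells, ATF3 was found in 39.7% ± 8.54 of cells with JUN and in 3.99% of those without. IER2 (1 OF 2), IER2(2OF2) and JUN(2OF2) were also found more often in ganglion cells with JUN than in those without, in each of the 3 libraries. DUSP1 and FOSL2 were not found in ganglion cells with JUN in these libraries. NR4A3 was found in 0% of ganglion cells with JUN and in 0.918% of those without. These shares describe cells of shared libraries and carry no test, and the part of cell quality or of subtypes in them was not tested. Where both orders of a pair were counted, they read the same link, so ordered pairs are not separate results. The share over pairs of other genes was not computed, so nothing is read from the counts of pairs.

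The 2 libraries of an age were compared because dissociation acts on a whole library. The biological coefficient of variation, the spread of a gene between libraries of an age as edgeR estimates it, had a median of 0.163 over the 92 entry and type pairs that passed the low-count filter, beside a median of 0.134 over all genes of the same fits. It lay above its fit's median in 66 of the 92 pairs by edgeR and in 36 by the dispersion of DESeq2, so the 2 tools placed the entries on different sides. IER2(2OF2) was above in 13 of 15 types by edgeR, DUSP1 in 8 of 9 and ATF3 in 11 of 14, against 6 of 12 for JUN(2OF2). By DESeq2 the same counts were 3 of 15, 6 of 9, 7 of 14 and 5 of 12, so the order of the entries by spread depended on the tool.

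At 12 weeks IER2(2OF2) was higher in replicate 1 than in replicate 2 in 15 of 16 types, with a median ratio of 1.62 between them. Over all cells the libraries stood at 641 and 420 CPM. FOS, the classic partner of JUN, was higher in replicate 1 in 13 of 16 types (665 and 485 CPM over all cells), and CEBPD, an early transcription factor of the C/EBP family, in 12 of 12 (74.5 and 40.4 CPM). JUN itself was higher in replicate 1 in only 9 of 15 types (191 and 168 CPM), ATF3 in 7 of 14 (144 and 119 CPM) and NR4A3 in 6 of 12. Of the heat shock entries, HSPA8 (XLOC_017629) was higher in replicate 1 in 16 of 16 types and HSP90AA1.2 in 14 of 16 (3012 and 1985 CPM over all cells). HSPA1A (XLOC_003379) stood at 623 and 397 CPM over all cells. It was higher in replicate 2 in horizontal cells (242 and 286 CPM), Vip neurons (829 and 904 CPM) and UV-cones (422 and 436 CPM). The other heat shock entries are not reported here for 12 weeks. IER2(2OF2), FOS and CEBPD thus leaned to replicate 1 in most types at 12 weeks, and JUN, ATF3 and NR4A3 were close to evenly divided between the replicates. At 18 weeks JUN was higher in replicate 1 in 12 of 15 types (median ratio 1.37) and DUSP1 in 7 of 9 (1.27). IER2(2OF2) was higher there in 10 of 15 and IER2 (1 OF 2) in 6 of 14. At 6 weeks JUN was higher in replicate 1 in 7 of 14 types and ATF3 in 10 of 15 (1.33), but DUSP1 in 2 of 11. The types share the same libraries and the share of all genes higher in replicate 1 was not computed, so nothing is read from these counts.

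**Figure D2:**
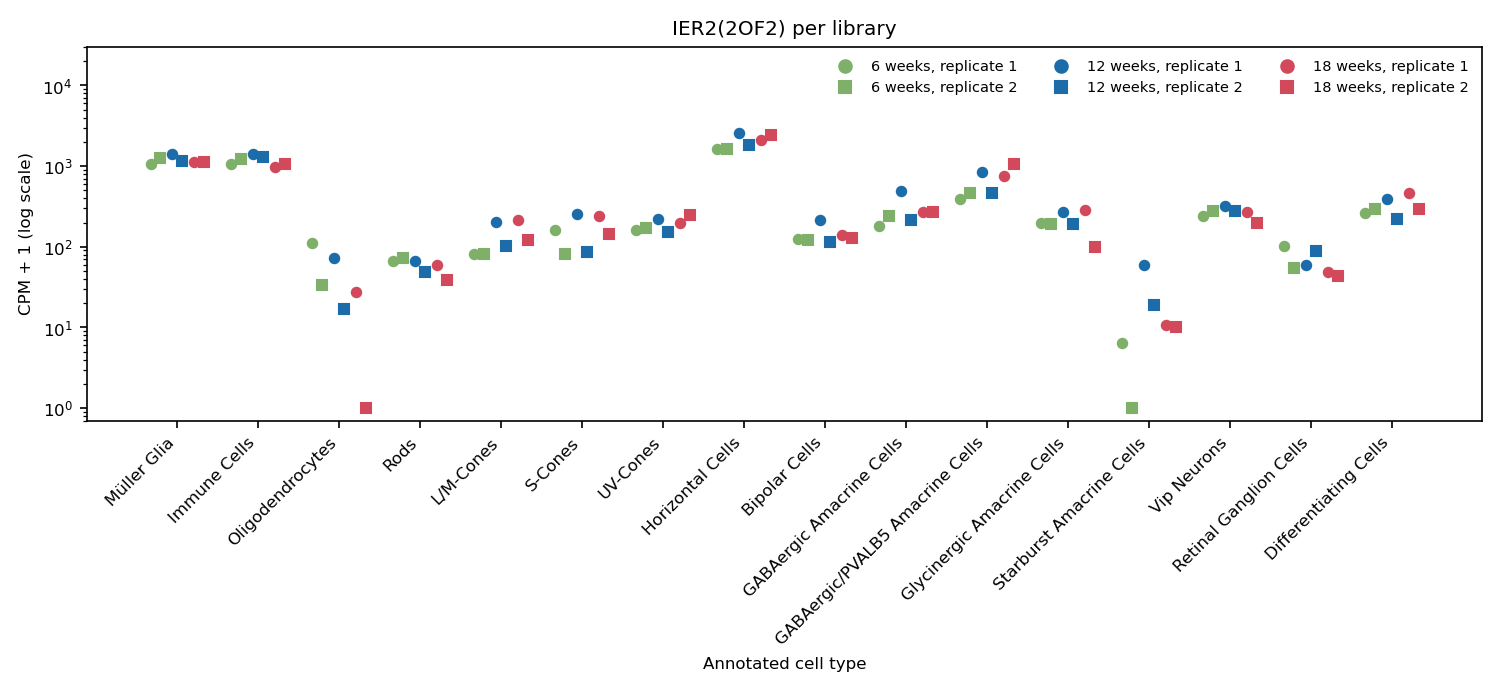
Level of IER2(2OF2) in each of the 6 libraries (points, coloured by age, with circles for replicate 1 and squares for replicate 2) for the 16 cell types, as CPM plus 1 on a log axis. Horizontal cells lie above all other types in every library (1616 to 2603), and the first 12-week library lies above the second in 15 of 16 types.

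Levels at 18 weeks were compared with levels at 6 weeks in each type with the edgeR quasi-likelihood test over all genes, and a gene was called at an adjusted p of 5%. Of the 92 pairs of entry and type that could be tested, 12 were called, 6 higher and 6 lower at 18 weeks. Over all genes and the 16 types the same test called 2.36% of 138175 fits (1.08% higher and 1.28% lower). The members were picked with these libraries in view, so nothing is read from that difference. The calls fell in 4 types, with 6 in L/M-cones, 3 in bipolar cells, 2 in rods and 1 in Müller glia. By sign alone JUN lay above 0 in 11 of 14 types, while NR4A3 and FOSL2 each lay below 0 in 6 of 7. DUSP1 lay above 0 in 7 of 9 types, ATF3 in 10 of 14 and IER2 (1 OF 2) in 9 of 14. IER2(2OF2) did so in 8 of 15 and JUN(2OF2) in 7 of 12. The types share the same libraries and signs over all genes were not counted, so nothing is read from these counts.

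**Figure D3:**
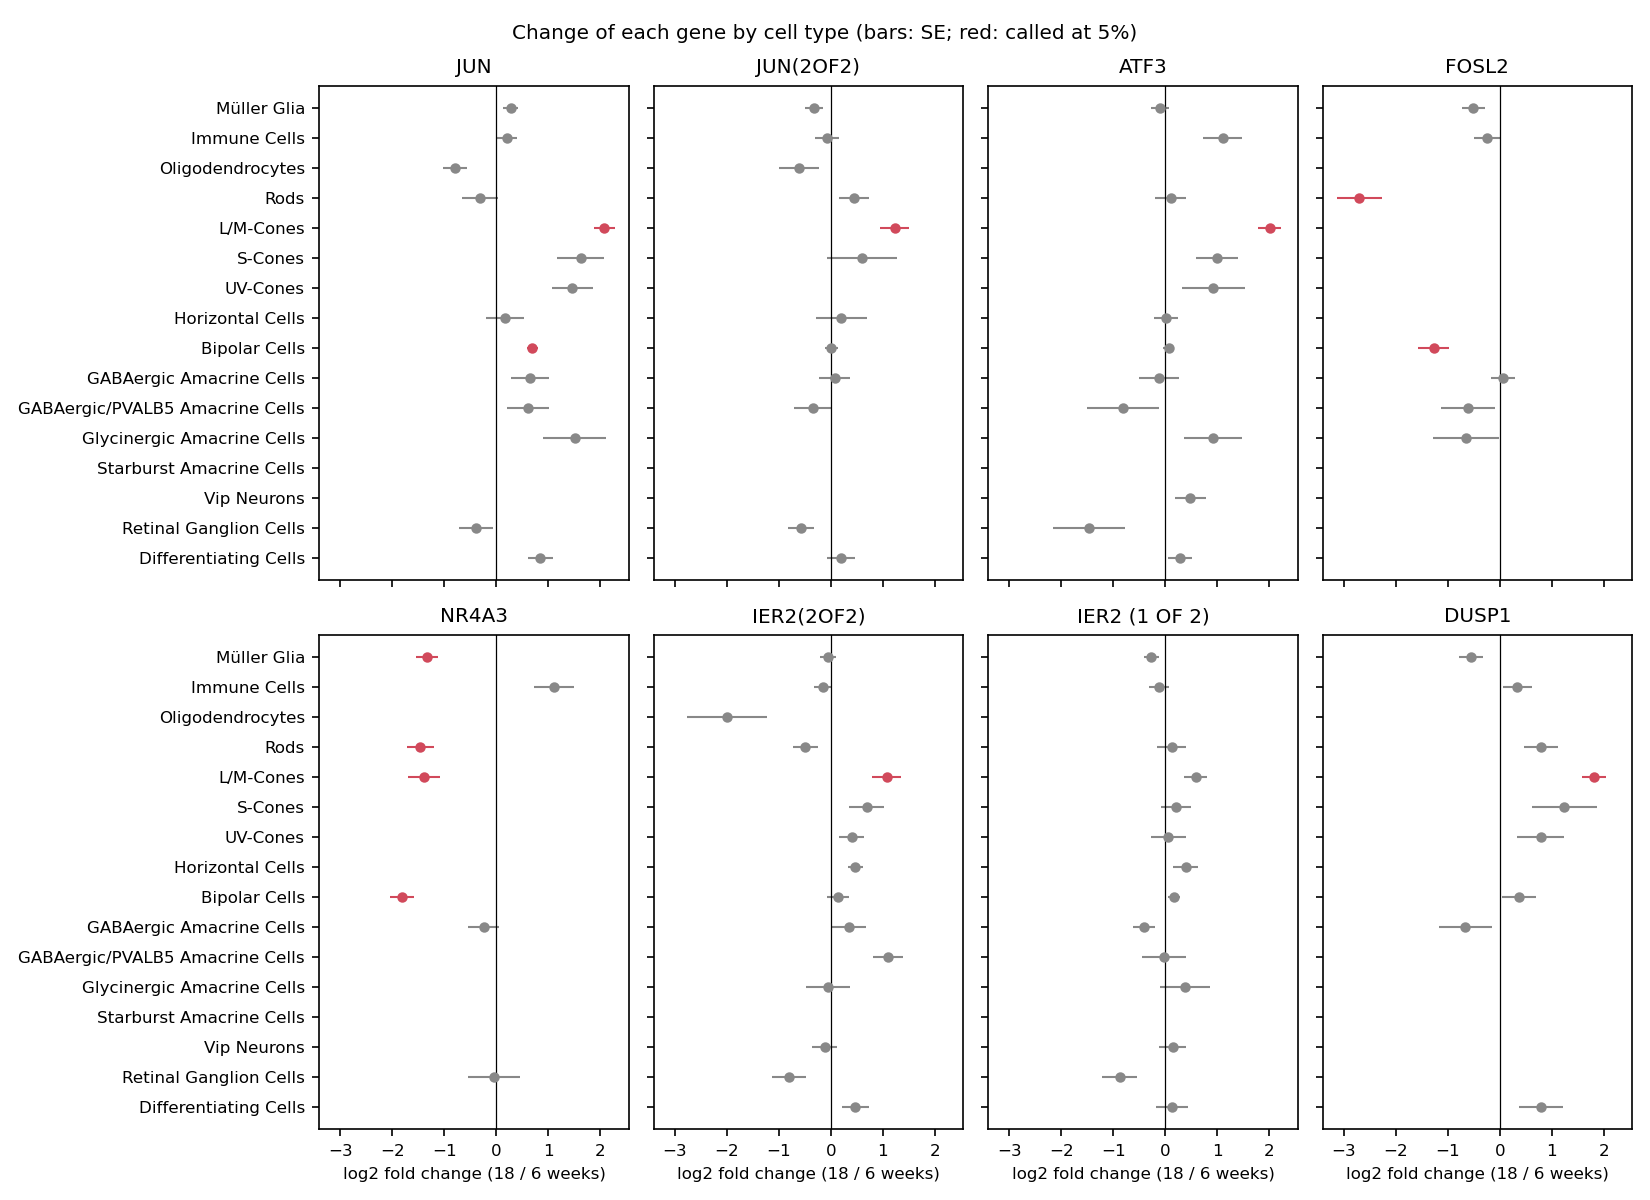
Log2 fold change of each entry at 18 against 6 weeks in every type where it could be tested, with bars of 1 SE and called entries in red. The 6 calls above 0 are 5 entries in L/M-cones and JUN in bipolar cells, and the 6 calls below 0 are NR4A3 in 4 types and FOSL2 in bipolar cells and rods.

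L/M-cones, the cones tuned to longer wavelengths, were the type with most calls, with 5 entries higher and NR4A3 lower at 18 weeks, beside 2.94% of all genes called there in either direction (1.74% higher and 1.2% lower). JUN was at 108 and 84.5 CPM in the 18-week L/M-cones, against 21.6 and 24.5 CPM in the 6-week L/M-cones. Its log2 fold change was 2.07 (SE 0.20), and both 12-week libraries, at 30.8 and 29.2 CPM, sat near the 6-week level. ATF3 was at 208 and 192 CPM in the 18-week L/M-cones, against 55.1 and 44.4 CPM in the 6-week L/M-cones (log2 fold change 2.01, SE 0.22). The 12-week ATF3 values of 117 and 65.8 CPM lay between the ages. DUSP1 was at 54.0 and 43.2 CPM in the 18-week L/M-cones, against 12.9 and 15.1 CPM in the 6-week L/M-cones (log2 fold change 1.81, SE 0.23), and it was not called after thinning (1.98, SE 0.61), while DESeq2 gave it no adjusted p.

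JUN(2OF2) and IER2(2OF2) were less even. JUN(2OF2) was at 71.1 and 36.6 CPM in the 18-week L/M-cones, against 19.7 and 27.7 CPM in the 6-week L/M-cones, but its 12-week libraries were as high, at 71.6 and 59.0 CPM. Its log2 fold change at 18 against 6 weeks was 1.22 (SE 0.27), and it was no longer called without 6-week replicate 1 (0.99) or 18-week replicate 1 (0.62). After thinning JUN(2OF2) was not called either. IER2(2OF2) was at 217 and 119 CPM in the 18-week L/M-cones, against 80.5 and 81.1 CPM in the 6-week L/M-cones, with 202 and 101 CPM at 12 weeks. Its log2 fold change was 1.07 (SE 0.27), and it was no longer called without 6-week replicate 1 (1.06), 6-week replicate 2 (1.08) or 18-week replicate 1 (0.55). The call was also lost with DESeq2 and after thinning. For IER2(2OF2) the first library of 12 and of 18 weeks was the higher of its pair, so the spread between libraries was about as large as the age difference.

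NR4A3 went the other way in the same cones, at 6.8 and 10.3 CPM in the 18-week libraries, against 22.0 and 22.0 CPM in the 6-week libraries. Its log2 fold change was -1.39 (SE 0.31), and the call was lost without 6-week replicate 1 (-1.40), 6-week replicate 2 (-1.40), 18-week replicate 1 (-1.10) or 18-week replicate 2 (-1.68). After thinning NR4A3 had too few counts in these cones to be tested, and DESeq2 gave it no adjusted p. The other cones leaned as the L/M-cones did for JUN without a call. S-cones had 72.2 and 47.6 CPM of JUN at 18 weeks, against 17.0 and 23.3 CPM at 6 weeks (log2 fold change 1.62, SE 0.45). UV-cones had 120 and 55.0 CPM at 18 weeks, against 37.3 and 29.0 CPM at 6 weeks (1.46, SE 0.39). Rods, the other photoreceptors, had 18.0 and 8.6 CPM of JUN at 18 weeks, against 12.8 and 21.0 CPM at 6 weeks, and overlapped.

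ATF3 and DUSP1 were not called in the other cones. S-cones had 155 and 54.4 CPM of ATF3 at 18 weeks, against 28.3 and 86.6 CPM at 6 weeks, and the ages overlapped (log2 fold change 0.99, SE 0.40). UV-cones had 49.3 and 16.9 CPM of ATF3 at 18 weeks, against 9.3 and 29.0 CPM at 6 weeks, and overlapped as well (0.92, SE 0.61). DUSP1 did not overlap in S-cones (35.0 and 30.6 CPM at 18 weeks, against 14.2 and 13.3 CPM at 6 weeks; 1.24, SE 0.62) or in UV-cones (65.7 and 97.3 CPM at 18 weeks, against 42.0 and 50.1 CPM at 6 weeks; 0.78, SE 0.46).

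**Figure D4:**
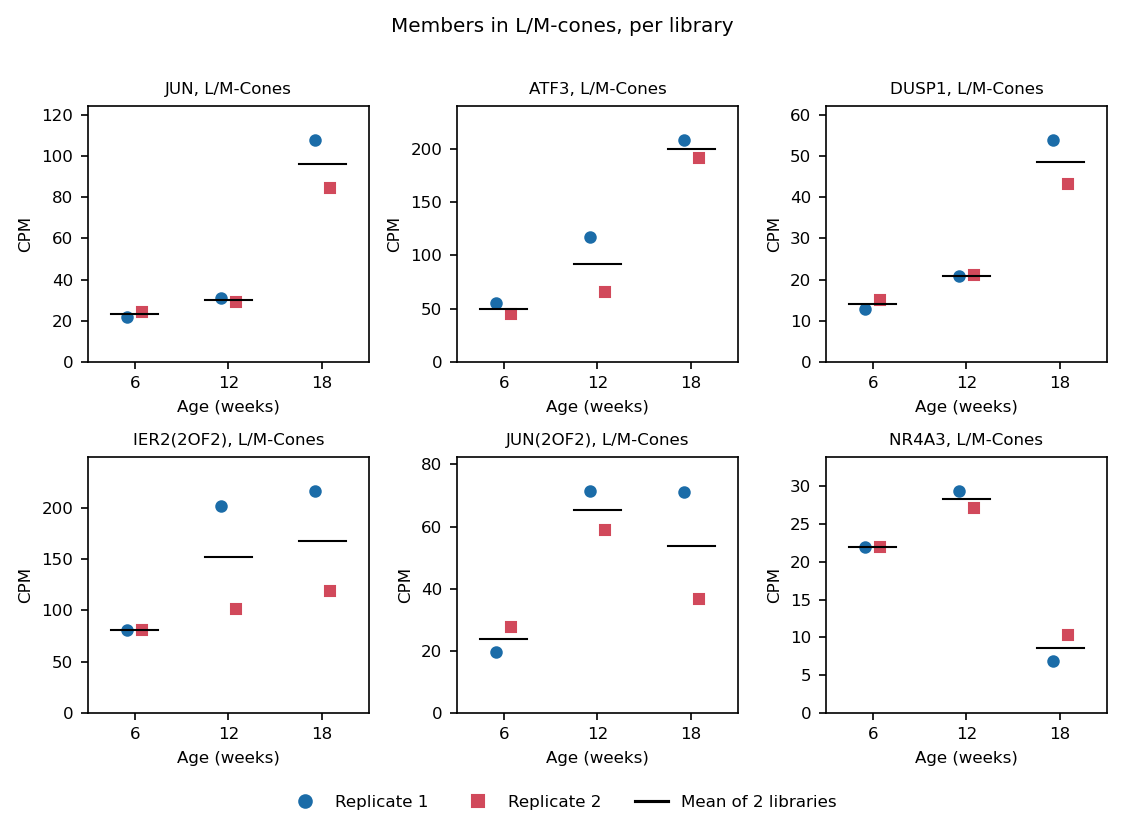
CPM of 6 entries in L/M-cones, with a point for each of the 2 libraries per age (6, 12 and 18 weeks) and a bar at their mean. JUN, ATF3 and DUSP1 are highest in both 18-week libraries (JUN at 108 and 84.5), JUN(2OF2) and IER2(2OF2) are already high in 12-week libraries, and NR4A3 is lowest at 18 weeks (6.8 and 10.3).

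Depth, the markers of Müller glia and cones, and the heat shock gene HSPA1A were read in the same L/M-cones. The median L/M-cone held 4887.5 and 3244 UMIs in the 18-week libraries, against 5484.5 and 7294 UMIs in the 6-week libraries. When the cones were divided at 6592.5 UMIs, a division chosen after seeing the data, JUN was at 126 and 102 CPM in the deeper 18-week cones, against 20.5 and 24.9 CPM in the deeper 6-week cones. In the shallower cones it was at 45.3 and 39.8 CPM at 18 weeks, against 26.7 and 19.3 CPM at 6 weeks, so the age difference had the same direction at both depths and was larger in the deeper cones. ATF3 had the same pattern, with 243 and 239 CPM in the deeper 18-week cones, against 58.1 and 44.8 CPM in the deeper 6-week cones, and 87.7 and 63.6 CPM in the shallower 18-week cones, against 46.3 and 36.8 CPM in the shallower 6-week cones. NR4A3 was lower only in the deeper cones (4.4 and 6.4 CPM at 18 weeks, against 23.9 and 20.9 CPM at 6 weeks) and overlapped in the shallower ones. Thinning left 61 UMIs of JUN, and JUN was then not called (1.35, SE 0.48) while ATF3 was.

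Summed Müller glia markers stood at 281 and 158 CPM in 18-week L/M-cones, against 213 and 312 CPM in 6-week L/M-cones. The ages overlapped in this sum, and summed cone markers lay between 23642 and 31784 CPM. Markers of immune cells and of other types in these cones are not reported here. Among the listed heat shock genes, HSPA1A (XLOC_003379), an inducible chaperone, was at 1635 and 958 CPM in the 18-week L/M-cones. In the 6-week L/M-cones it was at 339 and 397 CPM (log2 fold change 1.82). The part of HSPA1A, of RNA from other cells and of library handling in the L/M-cone values was not tested.

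NR4A3 was called lower at 18 weeks in 4 types, which besides L/M-cones were Müller glia, rods and bipolar cells. Müller glia had 83.1 and 67.4 CPM at 18 weeks, against 236 and 145 CPM at 6 weeks (log2 fold change -1.33, SE 0.21), with 122 and 143 CPM at 12 weeks. The test called 5.31% of all genes in Müller glia. Rods had 36.8 and 59.9 CPM at 18 weeks, against 153 and 110 CPM at 6 weeks (-1.46, SE 0.26), beside 2.49% of genes called in rods, and the call was lost without 18-week replicate 1 (-1.12). Bipolar cells, the relay neurons between photoreceptors and ganglion cells, had 4.6 and 3.5 CPM at 18 weeks, against 14.3 and 13.9 CPM at 6 weeks (-1.82, SE 0.23), beside 6.94% of genes called there. In the 13 clusters of bipolar cells both 18-week libraries lay below both 6-week libraries in 7 and above in none. The clusters share these libraries and are no independent repeats. The share of all genes without overlap in them was not computed, so nothing is read from the count for NR4A3.

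Immune cells differed from these types for NR4A3, with 71.6 and 82.0 CPM at 18 weeks, against 49.3 and 19.8 CPM at 6 weeks (log2 fold change 1.11, SE 0.39, not called). In the sum of all cells NR4A3 was at 22.7 and 22.4 CPM at 18 weeks, against 45.4 and 39.6 CPM at 6 weeks (-0.92, SE 0.12). It was the 1 entry of 8 called in that sum, beside 3.63% of all genes, and the call was lost without 6-week replicate 1 (-0.82) or 6-week replicate 2 (-1.03). In a sum over all cells a change in the share of a type and a change in RNA per cell cannot be told apart. JUN in the sum had a log2 fold change of 0.61 (SE 0.13) and was not called.

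FOSL2 was called lower at 18 weeks in rods and in bipolar cells, types where its level was low. Rods had 9.6 and 6.3 CPM at 18 weeks, against 35.9 and 69.5 CPM at 6 weeks (log2 fold change -2.70, SE 0.43), with 13.5 and 38.8 CPM at 12 weeks. This call was kept in all 12 alternatives run. Bipolar cells had 2.3 and 4.0 CPM at 18 weeks, against 7.8 and 7.9 CPM at 6 weeks (-1.27, SE 0.29). The bipolar call was lost without 6-week replicate 1 (-1.29), 6-week replicate 2 (-1.26) or 18-week replicate 1 (-0.97), with DESeq2 and after thinning. GABAergic amacrine cells, the type with the highest FOSL2 level, had 232 and 348 CPM at 18 weeks, against 267 and 292 CPM at 6 weeks, and were not called (0.06, SE 0.23).

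**Figure D5:**
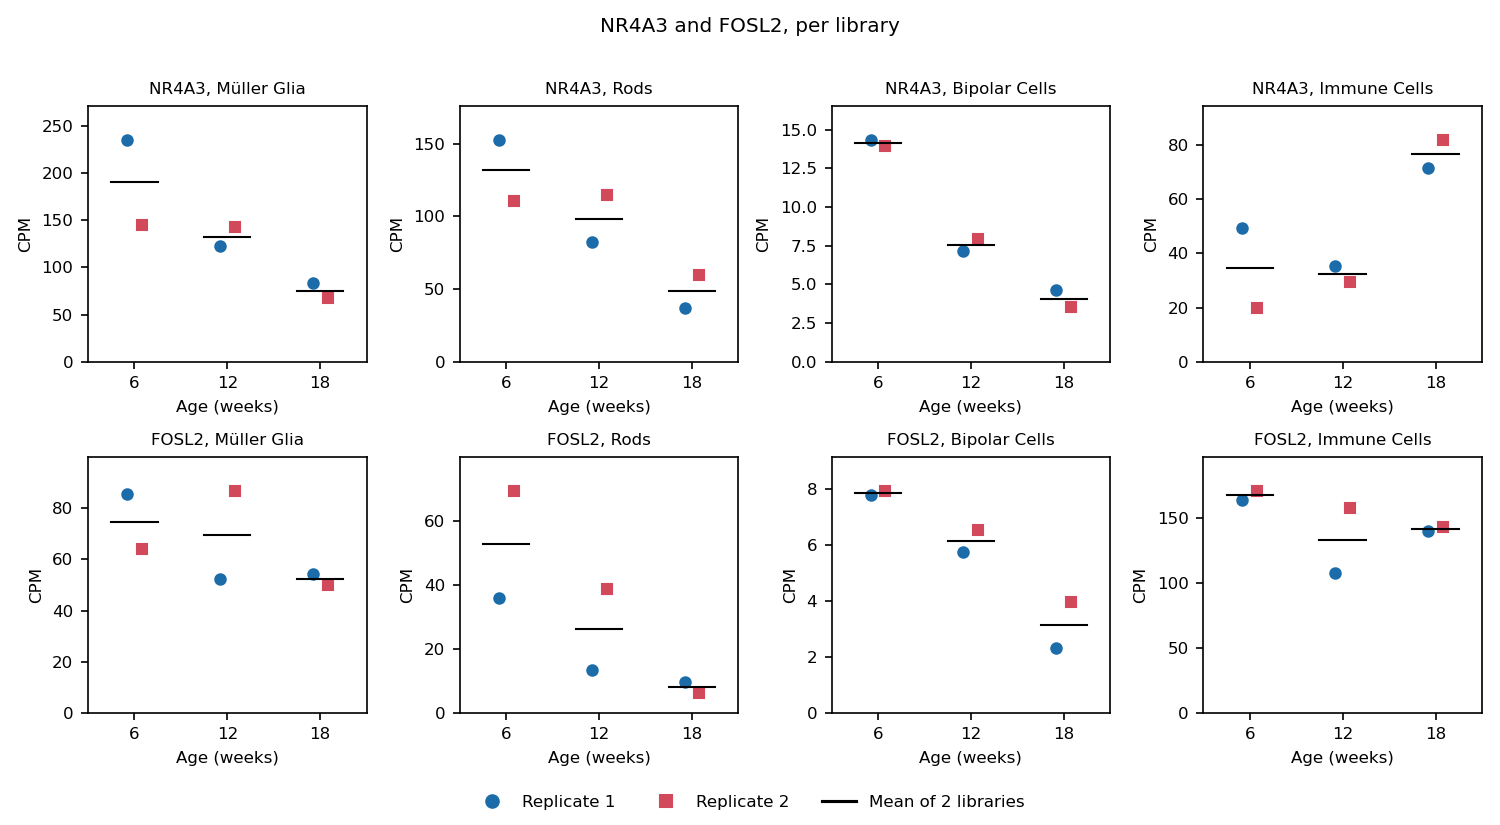
CPM of NR4A3 and FOSL2 in Müller glia, rods, bipolar cells and immune cells, with a point for each of the 2 libraries per age and a bar at their mean. NR4A3 falls with age in Müller glia, rods and bipolar cells (83.1 and 67.4 at 18 weeks in Müller glia) but is highest at 18 weeks in immune cells (71.6 and 82.0), and FOSL2 is lowest at 18 weeks in rods (9.6 and 6.3).

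JUN was called higher at 18 weeks in bipolar cells, the most numerous type with 17770 cells. It was at 238 and 234 CPM at 18 weeks, against 143 and 149 CPM at 6 weeks, with 185 and 181 CPM at 12 weeks (log2 fold change 0.69, SE 0.10). The libraries of an age lay close together and the 3 ages did not overlap. In 11 of the 13 bipolar clusters, which share these libraries, both 18-week libraries lay above both 6-week libraries. The share of all genes without overlap in the clusters was not computed, so nothing is read from that count. The gap was widest in cluster 14, with 707 CPM in 18-week replicate 1 and 495 CPM in 18-week replicate 2, against 126 and 70.1 CPM at 6 weeks. Cluster 10 went the other way, at 56.9 and 81.1 CPM at 18 weeks, against 94.6 and 115 CPM at 6 weeks. In bipolar cells above the median depth of 1963 UMIs JUN was at 283 and 274 CPM at 18 weeks, against 137 and 142 CPM at 6 weeks. Below that depth the ages overlapped (183 and 129 CPM at 18 weeks, against 154 and 149 CPM at 6 weeks).

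In the types where JUN and ATF3 were highest they were not called. JUN in Müller glia had a log2 fold change of 0.28 (SE 0.14) and ATF3 had -0.10 (SE 0.18), with 608 and 687 CPM at 18 weeks, against 817 and 577 CPM at 6 weeks. Oligodendrocytes leaned lower for JUN, at 187 and 126 CPM at 18 weeks, against 309 and 256 CPM at 6 weeks (-0.80, SE 0.24). ATF3 in immune cells was at 107 and 176 CPM at 18 weeks, against 76.6 and 52.7 CPM at 6 weeks (1.1, SE 0.37). DUSP1 in immune cells was at 166 and 271 CPM at 18 weeks, against 156 and 188 CPM at 6 weeks (0.34, SE 0.27), and the ages overlapped. IER2(2OF2) had a log2 fold change of 0.47 (SE 0.14) in horizontal cells. In the PVALB5 amacrine class it was at 750 and 1075 CPM at 18 weeks, against 393 and 467 CPM at 6 weeks (1.1, SE 0.29), and the 12-week libraries, at 845 and 458 CPM, spanned both ages. The other copy, IER2 (1 OF 2), was called in none of the 14 types where it could be tested.

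Of the 92 pairs, 1 was called at 12 against 6 weeks, beside 0.122% of all genes. It was JUN(2OF2) in L/M-cones, with a log2 fold change of 1.47 (SE 0.25). It was not called without 6-week replicate 1 (1.24) or after thinning. At 18 against 12 weeks 4 were called, beside 0.493% of all genes, and all were in L/M-cones: JUN (1.69, SE 0.20), DUSP1 (1.23, SE 0.23), ATF3 (1.1, SE 0.21) and NR4A3 (-1.76, SE 0.31). Without 18-week replicate 1 the count was 1, and JUN was the entry whose call no left-out library removed. After thinning the calls of JUN, DUSP1 and ATF3 at 18 against 12 weeks were lost, and NR4A3 had too few counts to be tested. The 18-against-6-week and 18-against-12-week comparisons share the 18-week libraries.

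Other genes of the early response, from lists of AP-1 partners, early transcription factors, early effectors, feedback inhibitors, upstream regulators and heat shock genes, gave 914 fits of 98 entries over the 16 types at 18 against 6 weeks. Of these 35 rose and 9 fell (4.81%, median log2 fold change 0.05), beside 2.36% of all genes. The count was 27 without 6-week replicate 2, 25 without 18-week replicate 2 and 72 without either 12-week library. Feedback inhibitors gave 12 higher and 2 lower of 254 fits, heat shock genes 12 and 1 of 135, AP-1 partners 4 and 2 of 99, and other early transcription factors 5 and 3 of 141. All 12 higher heat shock calls came from entries named HSPA1A, and no other heat shock gene was called higher within a type. Upstream regulators gave 1 higher of 208 fits, and early effectors 1 higher and 1 lower of 77. In L/M-cones 7 of 61 fits were higher and none lower, with a median of 0.24. The lists were chosen with earlier results of these data known, so nothing is read from the difference between 4.81% and 2.36%. The calls and adjusted p of listed genes, here and below, are given as a description.

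FOS rose at 18 weeks in horizontal cells (log2 fold change 0.79, SE 0.18, edgeR adjusted p = 0.0258), L/M-cones (0.72, SE 0.18, edgeR adjusted p = 0.0347) and bipolar cells (0.69, SE 0.19, edgeR adjusted p = 0.0478). The FOS calls in L/M-cones and bipolar cells were each lost when any one of the 6-week or 18-week libraries was left out, and in horizontal cells when either 18-week library was. SOCS3B, an inhibitor of cytokine signalling, was at 77.2 and 85.4 CPM in the 18-week L/M-cones, against 25.1 and 12.2 CPM in the 6-week L/M-cones (2.11, SE 0.25, edgeR adjusted p = 0.000132). MAP3K12(1OF2), which encodes the kinase DLK that acts upstream of JUN in stressed neurons, rose in L/M-cones (1.75, SE 0.31, edgeR adjusted p = 0.00439), a call lost without 6-week replicate 2 or 18-week replicate 2. In Müller glia an entry named BATF3 (XLOC_009487), whose annotation name is batf2 and which belongs to AP-1 by either name (2.16, SE 0.27, edgeR adjusted p = 0.000139), ZFP36, which speeds the decay of early mRNAs (1.1, SE 0.18, edgeR adjusted p = 0.00139), and GADD45G, a stress-response gene (1.11, SE 0.21, edgeR adjusted p = 0.00477), rose. HSPA1A (XLOC_003379) rose in 8 types and in the sum of all cells (1.98 in the sum, a call lost without either 6-week library or 18-week replicate 1), with 2.74 in Müller glia and 2.15 in bipolar cells, and was higher in replicate 1 than in replicate 2 at 18 weeks in 13 of 15 types (1065 and 521 CPM over all cells).

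Other listed genes with at least 20 CPM were called as well. In Müller glia CEBPD (log2 fold change 1.07), DUSP6, a phosphatase of ERK kinases (0.99), and ZFP36L2 (0.77) rose, and DUSP8A (-0.85), the kinase gene SGK1 (-0.70) and KLF6(1OF2) (-0.69) fell, with edgeR adjusted p between 0.00127 and 0.0410. In horizontal cells TRIB1 (0.92) and DUSP5 (0.61) rose and KLF6(1OF2) (-0.85) fell. TIPARP rose in L/M-cones (0.77), GADD45G in S-cones (1.04) and NPAS4A, an activity-induced neuronal factor, in Vip neurons (1.82). GADD45AB rose in rods (0.95), bipolar cells (0.78) and the sum of all cells (0.86), ZFP36 rose in that sum (1.14), and MAFBA fell in rods (-0.96). In oligodendrocytes CEBPD rose (1.28) and GADD45G(3OF3) fell (-1.07). Among the calls in this set, that of CEBPD in Müller glia was kept whichever library was left out, and the others were each lost without at least 1 library. A further HSPA1A entry (XLOC_002541) rose in bipolar cells (1.1), horizontal cells (0.97), L/M-cones (1.2) and UV-cones (1.02), and all but the bipolar call were lost without 18-week replicate 1.

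The genes most like each entry were ranked by Pearson's r of log2(CPM + 1) over the 96 sums of 16 types and 6 libraries, which share libraries and depth. For JUN the highest was JUN(2OF2) (r = 0.82), followed by CTDSP1(1OF2) and WTIP (0.78 each). IER2 (1 OF 2) was most like NR4A1 (2 OF 2) (0.87) and EGR1 (0.81), both early transcription factors. IER2(2OF2) was most like FOS (0.75), and FOSL2 most like JUNBA (0.72) and FOSB (0.68), which belong to AP-1 as well. ATF3 was most like BMPR1A (0.74), NR4A3 most like ADCY7 (0.66) and DUSP1 most like NFKB1 (0.74). ATF3 and FOSL2, both AP-1 genes, had an r of 0.05 with each other.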

How the data were processed

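The authors deposited raw UMI counts per gene and cell, made with Cell Ranger 7.0.1 against a custom transcriptome of the GRZ strain, together with cell type, cluster and library labels. Cells held 1001 to 19991 UMIs. How doublets were treated is not given in the sources used here. Counting intervals cover counting error only. Strandedness of counting is not given, so overlapping genes could share reads.

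Counts were summed per library and type (at least 10 cells in each library) and tested with edgeR 4.0.16 (R 4.3.3): quasi-likelihood test, TMM scaling, filterByExpr by age, all 6 libraries with age as a factor, Benjamini-Hochberg over all genes of a fit, calls at 5%. This replaces the regression over single cells used in the study, since cells are not replicates. CPM use TMM library sizes. Cells were thinned to 1000 UMIs without replacement for shares. Alternatives were DESeq2 1.42.0, RLE scaling, no filter, thinned cells, a replicate block, only the libraries compared, bipolar cells without cluster 10 and each library left out. The fits were tested on simulated data.

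Members and lists were chosen with earlier results of these data known. The text names every entry, listed genes called at 18 against 6 weeks with at least 20 CPM, and the genes most like each entry. RefSeq assembly NfurGRZ-RIMD1 gave names only, and no sequence was used.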

Additional observations from a re-analysis of the deposited data

Results flagged for a closer look

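Several entries that were called in a type had both 18-week libraries on the other side of both 6-week libraries in another type. Whether the types differ was not tested for any of them. JUN, higher in L/M-cones and bipolar cells at 18 weeks, had a log2 fold change of -0.80 in oligodendrocytes, with both 18-week libraries below both 6-week libraries. ATF3, higher in L/M-cones, had -1.47 in ganglion cells. IER2(2OF2), higher in L/M-cones, had -2.0 in oligodendrocytes, -0.80 in ganglion cells and -0.49 in rods. JUN(2OF2), higher in L/M-cones, had -0.0712 in immune cells, -0.32 in Müller glia, -0.62 in oligodendrocytes and -0.57 in ganglion cells. NR4A3, lower in bipolar cells, L/M-cones, Müller glia and rods, had 1.11 in immune cells. IER2 (1 OF 2), called in no type, had both 18-week libraries above in 4 of 14 types and below in 4. Over all genes and types 2.36% of fits were called, which is a share of calls and not of overlap. The share of all genes without overlap was not computed, so nothing is read from the types without overlap.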

How the results depend on the processing

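Of 210 refits of called members, 175 kept the call, 35 lost it and none changed direction. For other listed genes it was 366 and 108 of 474. Directions of uncalled members were not counted. Refits to which DESeq2 gave no adjusted p, or in which the gene failed the low-count filter, are left out. Without the low-count filter 20 member pairs were called at 18 against 6 weeks within types, 8 at 12 against 6 weeks and 9 at 18 against 12 weeks, and 108 pairs of other listed genes. With cells thinned to 1000 UMIs, which lowers the counts tested, these were 6, 0, 0 and 29, and the sum over all cells gave 2. DESeq2 called 9 member pairs (8 shared), 2 at 18 against 12 weeks and 2 in the sum. Leaving out each library gave 8 to 17 member pairs, 0 to 7 at 12 against 6 weeks, 1 to 7 at 18 against 12 weeks, 0 to 1 in the sum and 25 to 72 for other listed genes. Of the 92 spreads between libraries, 36 lay above the fit's median by DESeq2. Before thinning, 60.1% of cells held at least 1 entry and 28.5% at least 2. Same-numbered libraries deviated together over all cells by r = -0.19 (6 and 12 weeks), -0.22 (6 and 18 weeks) and 0.38 (12 and 18 weeks). The main fit paired no libraries, and whether libraries of different ages were handled together was not tested. A replicate block gave 13 member pairs, 1 in the sum, 1 at 12 against 6 weeks, 4 at 18 against 12 weeks and 57 for other listed genes. A crossed block, chosen after seeing the data, gave 14, 4 in the sum, 4 at 12 against 6 weeks and 69.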
